A study of Homo sapiens with 6 samples.

Results

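The genes of chromosome 15 were followed in the RNA of NCI-H1299, a line from a human lung adenocarcinoma. There were 6 libraries, 3 labelled wild type and 3 labelled as overexpressing MTSS1, a gene for a membrane- and actin-binding scaffold protein. Of 64253 rows of the count table, 2091 were placed on chromosome 15 by their Ensembl identifier (GENCODE release 29, GRCh38), and 978 of these had at least 1 count. The 385 rows with a mean of at least 2 CPM over the 6 libraries are described here, where CPM is the read count relative to library size, in counts per mega-reads, after TMM scaling. The members were chosen by their position and by their level in these libraries, and the chromosome was selected on the log2 fold changes of its genes, which were known to be lower in the MTSS1-overexpressing libraries. The size and the number of those differences are a description and not a test of the chromosome. One row, the pseudogene NPM1P5, did not pass the filter on low counts: it held 247 and 221 counts in the first wild type and the first overexpressing library and 2 to 8 in the other 4. The other 384 rows were tested and are called members below.

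MTSS1 was introduced on a plasmid with an mCherry tag, followed by hygromycin selection and flow sorting. The same protocol text names HEK293T cells in connection with the transfection. The labels name no control plasmid, selection or sort for the wild type cells, so effects of MTSS1 cannot be told apart from those of the tag, the selection, the sorting or the passage of the cells. Whether libraries of 1 group derive from different cultures is not stated, and p-values then reflect only how these libraries vary, which may be technical.

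Total counts ranged from 13883380 to 29479453 per library. MTSS1 stood at 17.96 to 24.3 CPM in wild type and at 544 to 568 CPM in overexpressing libraries. The first principal component of the tested genes (34.8% of the variance) set the first library of each group apart from the other 4, and the second (32.9%) separated the groups. Of 8 listed markers of the line, VIM stood at 4260 to 4807 CPM and CDH1 at no more than 0.16 CPM. The keratin genes KRT8 and KRT18 stood at 136 to 212 and 433 to 638 CPM in wild type and at 30.3 to 68.8 and 223 to 396 CPM in overexpressing libraries, so these line markers moved with the group. The summed level of 7 fibroblast markers was 4.88 to 6.85 CPM in wild type and 4.55 to 10.4 CPM in overexpressing libraries, that of 7 leukocyte markers 2.44 to 5.09 and 1.32 to 6.11 CPM, and that of 5 endothelial markers 2.45 to 4.62 and 1.80 to 2.35 CPM. At least 1 CPM on average was reached by 2 fibroblast, 1 leukocyte and 1 endothelial marker, and CLDN5 was at 0 in all libraries. Mitochondrially encoded transcripts took 3.62% to 5.08% of counts in wild type and 4.56% to 5.65% in overexpressing libraries, and the part of these genes and of the markers in the results was not tested.

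Human chromosome 15 is acrocentric: its short arm carries ribosomal RNA arrays, and nearly all of its other genes lie on the long arm. The part of the long arm next to the centromere is rich in segmental duplications, among them the HERC2 and GOLGA8 copies, and holds the imprinted domain linked to the Prader-Willi and Angelman syndromes. Genes of very different function follow, such as the nicotinic receptor cluster linked to lung cancer risk, the glycolytic enzyme gene PKM, spindle and checkpoint genes and the growth factor receptor gene IGF1R.

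Most members moved by a similar small amount, and 9 departed from their neighbours by the test described further on. For 3 of the 9 the 250 bases before the RefSeq transcription start (GRCh38.p14) overlapped no exon of the annotation, and these are shown with CpG dinucleotides in capitals. The upstream sequence of RBPMS2, which lay above its neighbours, held 42 CpG (chr15:64775590-64775839, minus strand). Those of CORO2B and THSD4, which lay below their neighbours, held 4 (chr15:68518123-68518372, plus strand) and 1 (chr15:71096644-71096893, plus strand). The RefSeq start of CORO2B lies upstream of the first GENCODE start used for its counts here.
RBPMS2: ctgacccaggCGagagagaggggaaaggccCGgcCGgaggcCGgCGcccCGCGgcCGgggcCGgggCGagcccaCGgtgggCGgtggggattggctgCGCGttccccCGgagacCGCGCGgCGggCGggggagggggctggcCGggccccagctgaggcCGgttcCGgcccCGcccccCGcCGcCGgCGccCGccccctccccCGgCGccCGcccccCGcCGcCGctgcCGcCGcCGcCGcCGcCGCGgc
CORO2B: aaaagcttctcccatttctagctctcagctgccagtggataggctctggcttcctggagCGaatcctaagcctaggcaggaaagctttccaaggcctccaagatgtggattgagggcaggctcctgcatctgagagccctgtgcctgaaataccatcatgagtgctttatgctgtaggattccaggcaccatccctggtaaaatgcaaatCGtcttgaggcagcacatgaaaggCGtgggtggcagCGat
THSD4: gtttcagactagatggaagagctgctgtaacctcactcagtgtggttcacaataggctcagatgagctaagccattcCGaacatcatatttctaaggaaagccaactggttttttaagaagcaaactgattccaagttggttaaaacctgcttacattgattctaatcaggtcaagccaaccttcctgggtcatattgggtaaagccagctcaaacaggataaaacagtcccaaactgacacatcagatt

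The median over 27305 human RefSeq promoters was 11 CpG in this window, and that over the 321 members with a matched promoter was 22. Over the 8 departing genes with a matched promoter, CpG number did not separate the directions: RASGRP1 held 28, TYRO3 39 and LACTB 20 (above their neighbours), and ALDH1A2 held 33 and ANPEP 26 (below). The 16 members with fewer than 5 CpG, CORO2B and THSD4 among them, had a median log2 fold change of -0.34 (SD across genes 0.62). The median was -0.25 (SD 0.20) for 59 members of 5 to 14 CpG, -0.29 (SD 0.23) for 115 of 15 to 24, and -0.29 (SD 0.34) for 131 of 25 or more. None of the printed sequences held the NF-κB consensus or the AP-1 motif TGANTCA on either strand. Of the other departing genes with a matched promoter, ANPEP held 2 NF-κB matches and TYRO3 held 1 match of TGANTCA. RASGRP1, ALDH1A2 and LACTB held neither. The NF-κB consensus was found in 9.57% of all these promoters and in 11.2% of those of members, and TGANTCA in 6.60% and 4.98%.

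Chromosome 15 transcripts made up a smaller share of all counts in the overexpressing cells. Members took 2.76%, 2.72% and 2.74% of the counts of the wild type libraries and 2.29%, 2.19% and 2.27% of those of the overexpressing libraries. The shares of the 2 groups did not overlap. The median log2 fold change of the 384 members, overexpressing over wild type, was -0.28, which is a ratio of 0.82, with quartiles of -0.42 and -0.13. In single libraries the median deviation of members from the wild type mean (log2 CPM) was -0.0068, -0.0030 and 0.016 in wild type and -0.27, -0.31 and -0.25 in overexpressing cells. The 3 overexpressing libraries thus lay close together and below all wild type libraries. In bulk RNA a lower level in every cell and a mixture of cells with different levels cannot be told apart.

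The lowering was spread over many genes rather than carried by a few. The log2 fold change was below 0 for 343 of the 384 members (89.3%), against 49.4% of the 16091 genes tested. It lay between -0.5 and 0 for 287 members, below -0.5 for 56 and above 0 for 41. For 192 members all 3 overexpressing libraries lay below all 3 wild type libraries (50.0% of members; 13.5% of all genes tested), and for 10 members they lay above (2.6% of members; 12.1% of all genes tested). These shares were known when the chromosome was picked and carry no test.

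Of the 384 members, 55 were lower and 1, RASGRP1, was higher in overexpressing cells by edgeR's quasi-likelihood test (Benjamini-Hochberg adjusted p under 0.05 over all genes tested). These are 14.3% and 0.26% of members. Of all genes tested, 2.45% were lower and 1.82% were higher, and of those of at least 2 CPM 2.71% and 2.21%. With libraries of neighbouring title numbers as a block, 206 members were lower (53.6%; 12% of all genes) and 7 higher (1.82%; 10.7% of all genes), all 56 among them. Adjusted p-values named as blocked below come from this edgeR fit, and they are given where the block changes a call of this comparison. For departures from neighbours they are given only where a departure that did not pass is reported. The count rested on the number of libraries: it was 23, 25 and 10 lower members without wild type replicates 1, 2 and 3, and 24, 14 and 13 without overexpressing replicates 1, 2 and 3. Without both libraries of replicate 1 it was 7. Calls over all genes, both directions together, fell as well. They went from 688 to 341, 346 and 145 without these wild type replicates and to 325, 250 and 195 without these overexpressing replicates. Without both libraries of replicate 1 they were 132. The median of the members moved less, from -0.29 to -0.26 in the fits that left out 1 library and to -0.28 without both.

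**Figure D1:**
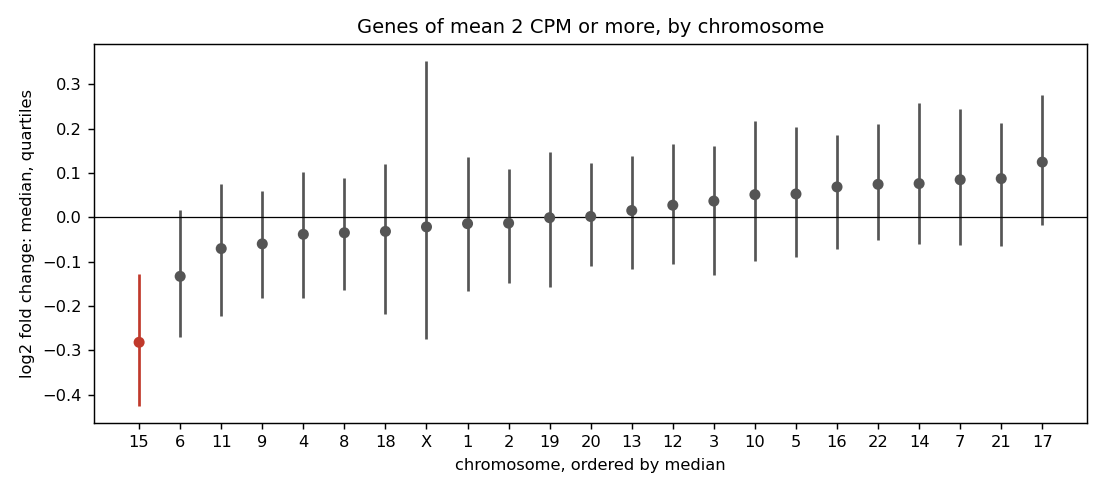
Median log2 fold change (points) and quartiles (lines) of genes averaging 2 CPM or more on each chromosome, overexpressing over wild type, ordered by median. Chromosome 15 (red) lies at -0.28 and the next lowest, chromosome 6, at -0.13.

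Set beside the other chromosomes at the same level of at least 2 CPM, chromosome 15 had the lowest of 23 medians. Chromosome 6 followed with -0.13 over 585 genes, chromosome 11 with -0.07 over 683, and chromosome 17 was highest with 0.12 over 703. The share of genes below 0 was 72.1% on chromosome 6 and 27.4% on chromosome 17. The X chromosome had a median of -0.02 with quartiles of -0.27 and 0.35, so that a chromosome with a median near 0 can hold genes that moved in both directions. Where such genes lie along the X chromosome was not examined. The plot of chromosome medians shows that the upper quartile of chromosome 15, at -0.13, was level with the median of chromosome 6. All chromosomes share the same 6 libraries, and no test of the difference was made.

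Along the chromosome the fold change was lowest next to the centromere and below 0 throughout. The 10 members between 20 and 25 Mb had a median log2 fold change of -0.70 and the 5 members between 25 and 30 Mb one of -0.49. In the other 15 windows of 5 Mb the medians lay between -0.45 (80 to 85 Mb, 21 members) and -0.15 (45 to 50 Mb, 20 members). In 16 of the 17 windows the 3 overexpressing libraries lay below all 3 wild type libraries in their median deviation. The exception was the window from 45 to 50 Mb, where the third overexpressing library stood at -0.06 and the first wild type library at -0.09.

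**Figure D2:**
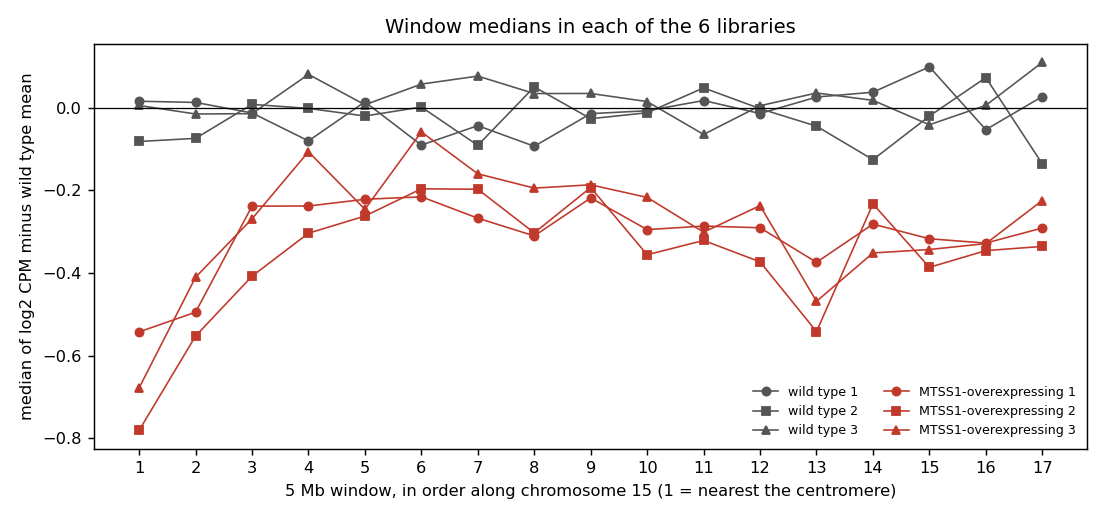
Median over the members of each 5 Mb window of log2 CPM minus the wild type mean, in order along the chromosome (window 1 spans 20 to 25 Mb), with 1 line per library. The 3 overexpressing libraries (red) lie at -0.54, -0.78 and -0.68 in window 1 and return to between -0.06 and -0.22 in window 6.

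The order of the genes shows where this change of level lies. The running median of 21 members was -0.63 around UBE3A, at the start of the plot of fold change by gene order. It was -0.22 around DPH6 and -0.11, its highest value, around VPS13C and LACTB. Further down it was -0.38 around PKM and -0.45 around NMB. The window medians of the wild type libraries lay between -0.14 and 0.11.

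**Figure D3:**
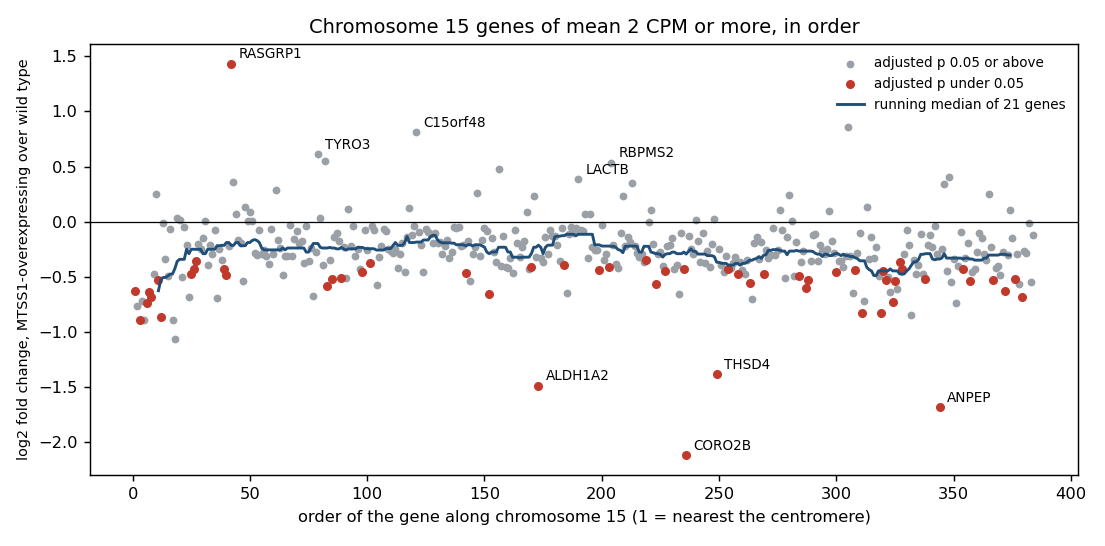
Log2 fold change of each of the 384 members against its order along chromosome 15, with genes past the test (edgeR adjusted p under 0.05) in red and the running median of 21 genes as a line. Most points lie between -0.5 and 0, and the named genes are those that departed from their neighbours.

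The stretch next to the centromere holds pseudogene copies and the genes NIPA1, NIPA2 and CYFIP1. NIPA1, a magnesium transporter gene linked to hereditary spastic paraplegia (chromosome 15, 22773063 to 22829791), stood at 149, 132 and 155 CPM in wild type and at 88.0, 82.1 and 91.0 CPM in overexpressing libraries. The groups did not overlap, and its log2 fold change was -0.74 (SE 0.09, edgeR adjusted p = 0.0036, n = 3 per group). NIPA2, its paralog and neighbour (22838641 to 22868384), stood at 169, 159 and 182 CPM against 112, 98.5 and 117 CPM (log2 fold change -0.64, edgeR adjusted p = 0.0081). CYFIP1, a subunit of the WAVE complex that controls actin branching (22867052 to 22981063), stood at 91.9, 105 and 89.6 CPM against 63.5, 56.3 and 59.2 CPM (log2 fold change -0.68, edgeR adjusted p = 0.0060). All 3 genes were lower in each overexpressing library than in any wild type library and passed the test in all 6 fits without 1 library. NIPA2 and CYFIP1 overlap in the annotation, so reads of the shared stretch cannot be told apart.

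Copies of HERC2 lie in the same stretch and fell as well. HERC2P2 fell from 11.4 ± 0.409 to 6.12 ± 0.63 CPM (SD, n = 3; edgeR adjusted p = 0.014) and HERC2P3 from 20.6 to 13.3 CPM (edgeR adjusted p = 0.020). Both are near-identical copies, so their counts are uncertain. The HERC2P2 call was lost without wild type replicate 3 or overexpressing replicate 3 (highest edgeR adjusted p 0.068), and HERC2P3 was called in 1 of those 6 fits (highest 0.081). HERC2 itself, a ubiquitin ligase gene with several such copies (28111040 to 28322152), stood at 39.0, 28.3 and 28.9 CPM in wild type and at 40.2, 25.4 and 29.7 CPM in overexpressing libraries. Its groups overlapped, and the log2 fold change was -0.02 (SE 0.19, edgeR adjusted p = 0.97).

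Of 15 listed genes of the imprinted Prader-Willi and Angelman domain and its flank, 6 were members, of which 4 fell, 0 rose and 2 did not pass the test. Called lower were 66.7% of them against 2.45% of all genes tested, and with the block 83.3% against 12%. Their median log2 fold change was -0.58, and that of all genes tested was 0.0046. The 4 that fell were UBE3A and the genes NIPA1, NIPA2 and CYFIP1 already described above. Of the 6, 0 departed from their neighbours by the test described further on. With the block NIPA1, NIPA2 and CYFIP1 did (edgeR adjusted p = 0.0013, 0.0069 and 0.023). UBE3A, the ubiquitin ligase gene of Angelman syndrome (25333728 to 25439056), stood at 180, 169 and 187 CPM in wild type and at 124, 113 and 134 CPM in overexpressing libraries. The groups did not overlap and the log2 fold change was -0.53 (SE 0.09, edgeR adjusted p = 0.014), a call lost without wild type replicate 3 or overexpressing replicate 2 (highest edgeR adjusted p 0.069). UBE3A overlaps the antisense transcript SNHG14, whose summed counts were 12 in wild type and 9 in overexpressing libraries. MKRN3, an imprinted gene, stood at 9.28, 7.18 and 7.58 CPM and at 6.68, 4.61 and 6.04 CPM (edgeR adjusted p = 0.22; blocked 0.036, so that 5 of the 6 fell with the block).

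Other genes of the domain were near or below the counting limit. SNRPN had 1 count in each group, SNURF and ATP10A were listed at 0, and NPAP1 had 2 and 0 counts. MAGEL2 had 60 summed counts against 4 (edgeR adjusted p = 0.084) and NDN 26 and 44 (edgeR adjusted p = 0.40). B2M, a broadly expressed gene further along the chromosome, had 34 and 23 counts, so a count near 0 is only a listed value in this table.

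The 15 members of the first 2 windows had a median of -0.64 and the 369 others one of -0.28. This division was chosen after the values were seen.

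Fold changes did not depend strongly on level, but their scatter did. The median was -0.34 for the 41 members of 2 to 5 CPM, -0.31 for 100 members of 5 to 20 CPM, -0.27 for 179 members of 20 to 100 CPM and -0.27 for 64 members of 100 CPM or more. All tested genes of the same 4 levels had medians of 0.04, 0.01, -0.01 and 0.02. The SD across members fell from 0.46 at the lowest level to 0.16 at the highest, while the median standard error of a single gene fell from 0.27 to 0.09.

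At 100 CPM or more, 62 of 64 members lay below 0, against 1141 of 2445 genes at that level on all chromosomes. The 2 exceptions, named after their values were seen, were the spindle checkpoint kinase gene BUB1B at 0.01 and the transcription factor gene MGA at 0.03 on the log2 scale. Of these 64 members, 10 fell by the test (15.6%; 3.15% of all genes at that level). At 20 to 100 CPM 37 of 179 fell (20.7%; 3.03%), and at 5 to 20 CPM 7 of 100 (7%; 1.94%). At 2 to 5 CPM 1 of 41 fell, ALDH1A2 (2.44%), which is near the 2.53% of all genes at that level and no result about members. With the block 7, 37, 115 and 47 members of the 4 levels fell, from the lowest level up. These are 17.1%, 37%, 64.2% and 73.4% of the members, against 7.15%, 10.1%, 16.5% and 19.8% of all genes.

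**Figure D4:**
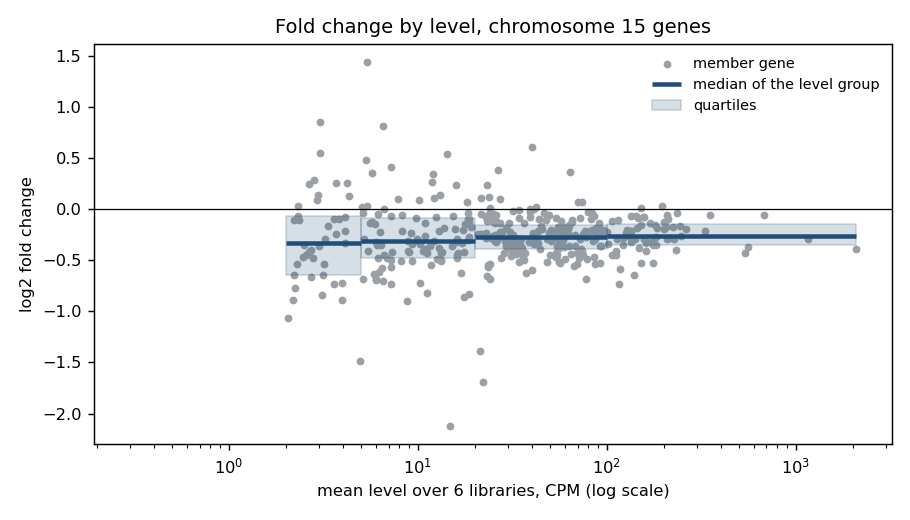
Log2 fold change of each member against its mean level in CPM (log axis), with the median (line) and quartiles (band) of 4 level groups. The medians lie between -0.34 and -0.27 while the scatter narrows towards high levels.

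By gene class, the 347 protein-coding members had a median log2 fold change of -0.29 (52 lower, 1 higher), the 15 long non-coding RNAs one of -0.23 (0 called) and the 22 pseudogenes one of -0.21 (3 lower, 0 higher). All tested protein-coding genes of at least 2 CPM had a median of 0.00018, long non-coding RNAs one of 0.03 and pseudogenes one of 0.04. Of those genes 2.93% of the protein-coding were lower and 2.39% higher. The shares were 0.998% and 1.33% for long non-coding RNAs and 1.18% and 0.295% for pseudogenes. With the block 198, 3 and 5 members of the 3 classes were lower (57.1%, 20% and 22.7%), against 15.2%, 7.65% and 6.2% of those genes. Higher with it were 7 protein-coding members (2.02%), against 13.9% of all protein-coding genes of that level. The long non-coding RNA OIP5-AS1, at 205 CPM, stood at -0.18 on the log2 fold scale (edgeR adjusted p = 0.27; blocked 0.017) and CHASERR, which lies beside CHD2, at -0.23 (edgeR adjusted p = 0.25). Pseudogenes spanned -0.90 (HERC2P2) to 0.25 (RPL5P1), and many share sequence with genes on other chromosomes, which makes their placement uncertain.

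Functional lists of chromosome 15 genes were then read for the number of members that passed the test. Their counts stand beside 2.45% lower and 1.82% higher of all genes tested, and 12% and 10.7% with the block. Of all members 14.3% were lower, and 53.6% with the block. Of 22 members on the list of transcription and chromatin genes, 8 fell and 0 rose (median -0.43; 17 and 0 with the block). CHD2, a chromatin remodeller gene (92900189 to 93028005), stood at 102, 107 and 99.9 CPM in wild type and at 67.3, 73.8 and 72.0 CPM in overexpressing libraries (log2 fold change -0.53, edgeR adjusted p = 0.0085). Its groups did not overlap, and it was called in all 6 fits without 1 library. TCF12, a basic helix-loop-helix factor gene, stood at 174, 195 and 180 CPM against 135, 134 and 144 CPM (log2 fold change -0.42, edgeR adjusted p = 0.023). EDC3, an mRNA decapping gene rather than one of transcription, changed by -0.48 (edgeR adjusted p = 0.027). The TCF12 call held in 1 and the EDC3 call in 0 of the 6 fits. Of the other genes of the list that fell, MEF2A and PML were called in 1 and ZNF592, MEIS2 and ZFAND6 in 0 of these fits.

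Of 28 members for mitosis and DNA replication or repair, 1 fell, 0 rose and 27 did not pass the test (median -0.17; 12 lower and 0 higher with the block). The share that fell, 3.57%, was near that of all genes tested and no result about the list (42.9% with the block). The log2 fold changes of this list ran from -0.89 to 0.10, and 24 lay below 0. KATNBL1, a katanin regulator gene, was the one that fell (log2 fold change -0.47, edgeR adjusted p = 0.048; called in 0 of the 6 fits without 1 library). ZWILCH, a kinetochore gene, had -0.28 and WDR76 had -0.24 (edgeR adjusted p = 0.14 and 0.16; blocked 0.0022 and 0.0086). ZWILCH overlaps RPL4, so some reads may be shared between them.

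Of 22 members of the actin, myosin and adhesion list, 4 fell and 1 rose (median -0.29; 15 and 2 with the block). The gene that rose was RASGRP1, a regulator of Ras rather than a part of the cytoskeleton, described further on. IQGAP1, a scaffold gene that binds actin, stood at 607, 600 and 637 CPM in wild type and at 434, 491 and 447 CPM in overexpressing libraries (log2 fold change -0.43, edgeR adjusted p = 0.022; called in 2 of the 6 fits). MYO5C, a motor gene of secretory vesicles, changed by -0.66 (edgeR adjusted p = 0.019; called in 2 of the 6 fits), and CYFIP1 and CORO2B were the other 2. TPM1, the tropomyosin gene, stood at 347, 362 and 370 CPM against 396, 221 and 422 CPM. Its second overexpressing library was low and the other 2 high, so the groups overlapped (log2 fold change -0.06, SE 0.20, edgeR adjusted p = 0.92).

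Of 16 members for growth factor and kinase signalling, 3 fell and 0 rose (median -0.30; 11 and 1 with the block). TYRO3, described further on, was the highest of them at 0.61. Those that fell were PTPN9, a tyrosine phosphatase gene (-0.49, edgeR adjusted p = 0.014), SPRED1, an inhibitor of the Ras pathway (-0.49, edgeR adjusted p = 0.018), and the casein kinase gene CSNK1G1 (-0.44, edgeR adjusted p = 0.027). SPRED1 stood at 84.6, 91.6 and 99.5 CPM in wild type and at 63.6, 64.7 and 68.6 CPM in overexpressing libraries, with no overlap. The 3 calls held in 2, 1 and 1 of the 6 fits without 1 library. Of 10 members on the list of matrix and secreted regulators, FURIN fell and 0 rose (median -0.23; 4 and 1 with the block). FURIN, the proprotein convertase gene, stood at 88.6, 82.8 and 75 CPM against 62.0, 57.3 and 50.7 CPM (log2 fold change -0.54, edgeR adjusted p = 0.023; called in 1 of the 6 fits). The sheddase gene ADAM10 had -0.33 (edgeR adjusted p = 0.065; blocked 0.00081), and CTSH, a lysosomal protease gene, 0.85 (edgeR adjusted p = 0.14; blocked 0.021).

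In the region of the nicotinic receptor cluster, 5 of 9 listed genes were members, and 1 fell (median -0.36; 4 with the block). IREB2, an iron-responsive RNA-binding protein gene (78437431 to 78501456), stood at 88.8, 84.1 and 86.5 CPM in wild type and at 64.0, 62.1 and 63.4 CPM in overexpressing libraries (log2 fold change -0.45, edgeR adjusted p = 0.012; called in 2 of the 6 fits). The proteasome subunit gene PSMA4 had -0.36 and the chromatin gene MORF4L1 -0.32 (edgeR adjusted p = 0.074 and 0.067; blocked 0.00093 for both). The receptor subunit gene CHRNA5 stood at 9.65, 8.63 and 12.1 CPM against 7.71, 5.80 and 9.33 CPM, which overlapped (edgeR adjusted p = 0.32; blocked 0.035). Summed over a group (wild type first), CHRNA3 had 0 and 1 counts and CHRNB4 0 and 7.

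Housekeeping groups had medians near that of all members. The lists of trafficking, translation and mitochondria had 1 gene each called lower. These shares of 3.7%, 5% and 5% are near the 2.45% of all genes and no result about the lists. With the block they were 48.1%, 65% and 45%, against 12% of all genes. Of 27 members for membrane trafficking and lysosomes, 1 fell, the recycling endosome GTPase gene RAB11A (-0.35, edgeR adjusted p = 0.041; called in 0 of the 6 fits), with a median of -0.22 (13 fell with the block). DMXL2 and GOLM2 had -0.29 and -0.28 (edgeR adjusted p = 0.066 and 0.068; blocked 0.0038 and 0.0026). Of 20 members on the list of translation and ribosomal protein genes, 1 fell (median -0.23; 13 with the block). It was SNAPC5, which encodes a subunit of a complex that transcribes small nuclear RNA genes and is not itself part of translation (-0.57, edgeR adjusted p = 0.045; called in 0 of the 6 fits), which overlaps MAP2K1. The ribosome biogenesis gene RSL24D1 had -0.41 and the mitochondrial ribosomal gene MRPS11 -0.35 (edgeR adjusted p = 0.054 and 0.14; blocked 0.0010 and 0.016). Of 20 members for mitochondria and metabolism, ALDH1A2 fell and 0 rose (median -0.25; 9 and 1 with the block), and the leucine catabolism gene IVD had -0.29 (edgeR adjusted p = 0.065; blocked 0.0031). Of 6 members with near-identical copies, HERC2P2 and HERC2P3 fell (median -0.27; 3 with the block), and GOLGA8B had -0.39 (edgeR adjusted p = 0.15; blocked 0.037). The background median over all genes tested, beside which each list is to be read, was 0.0046.

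The 8 members of highest CPM, a unit that is not per length, had log2 fold changes between -0.43 and -0.05. PKM, the pyruvate kinase gene of glycolysis, stood at 2665, 2092 and 2356 CPM in wild type and at 2009, 1605 and 1798 CPM in overexpressing libraries. All 3 overexpressing libraries were lower, but the spread within each group was wide for this fold (log2 fold change -0.39, SE 0.12, edgeR adjusted p = 0.096; 6.9e-05 with the block). The ribosomal protein genes RPL4 and RPLP1 had -0.29 and -0.37 and overlapped between groups (edgeR adjusted p = 0.44 and 0.25; 0.0031 and 5.4e-04 with the block). ANXA2, a membrane-binding annexin gene, stood at 733, 642 and 705 CPM against 711, 606 and 687 CPM (-0.05, edgeR adjusted p = 0.81). The chaperone gene PDIA3 had -0.22 and the transcriptional inhibitor gene EID1 -0.19 (edgeR adjusted p = 0.22 for both; blocked 0.0081 and 0.011), with no overlap between groups.

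To find genes that departed from their surroundings, each gene was tested against the median log2 fold change of its 50 nearest tested genes, entered as an offset in the same edgeR fit. Of the 384 members, 5 lay above and 4 below their neighbours (edgeR adjusted p under 0.05), which is 1.3% and 1.04% of members. The same calls made up 0.808% and 1.35% of all genes tested with neighbours, and 0.921% and 1.43% of those of at least 2 CPM. The shares of members are near these, so the number of departing members is no result about the chromosome. With neighbouring title numbers as a block the counts were 33 and 40, and all 9 passed. No share over all genes was drawn up for these blocked counts, so they are no result about the chromosome either. Of the 56 members called in the comparison of the groups, 51 did not pass this test. The first members share 1 set of neighbours at the end of the chromosome with a median of -0.38. The test there thus compares NIPA1 (departure -0.36, edgeR adjusted p = 0.076, blocked 0.0013) with genes that lie further along.

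CORO2B, a coronin gene that binds actin filaments (68578969 to 68727806; upstream sequence above), stood at 27.4, 20.1 and 24.5 CPM in wild type and at 6.24, 5.03 and 5.36 CPM in overexpressing libraries. Its neighbours had a median of -0.27, and its departure from them was -1.85 (SE 0.16, edgeR adjusted p = 0.0011). This departure passed in all 6 fits without 1 library (highest edgeR adjusted p 0.013). It is the lowest member by log2 fold change (-2.12).

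ANPEP, which encodes the cell surface peptidase CD13 (89784889 to 89815401), stood at 43.1, 21.5 and 36.9 CPM against 12.8, 9.07 and 9.81 CPM. The second wild type library was low but above all overexpressing libraries (departure -1.37, SE 0.25, edgeR adjusted p = 0.025). ALDH1A2, a retinoic acid synthesis gene (57953424 to 58497866), stood at 6.21, 9.13 and 6.68 CPM against 2.497, 2.498 and 2.84 CPM (departure -1.36, SE 0.22, edgeR adjusted p = 0.016). THSD4, a gene of microfibril assembly (71096952 to 71783383; upstream sequence above), stood at 25.9, 39.2 and 27.3 CPM against 12.04, 10.9 and 12.4 CPM (departure -1.06, SE 0.17, edgeR adjusted p = 0.016). For each of these 3 genes all overexpressing libraries lay below all wild type libraries.

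The departures of ANPEP and ALDH1A2 passed in 2 of the 6 fits without 1 library. ANPEP lost its call without wild type replicate 1 or 3 or overexpressing replicate 2 or 3 (highest edgeR adjusted p 0.11). ALDH1A2 lost it without replicate 2 or 3 of either group (highest edgeR adjusted p 0.077). THSD4 lost it without overexpressing replicate 2 or 3 (highest edgeR adjusted p 0.070). The calls of ALDH1A2 and THSD4 between the groups held in all 6 fits and that of ANPEP in 5. AQP9 lies within the annotated span of ALDH1A2, and reads of overlapping genes cannot be told apart.

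RASGRP1, a Ras guanine nucleotide exchange factor gene (38488103 to 38565575), was the highest member. It stood at 3.29, 2.65 and 2.81 CPM in wild type and at 6.54, 9.99 and 6.96 CPM in overexpressing libraries. The groups did not overlap. Its log2 fold change was 1.44 (SE 0.22, edgeR adjusted p = 0.011; 0.058 without wild type replicate 3), and its departure from neighbours of median -0.24 was 1.68 (edgeR adjusted p = 0.0075). The departure passed in all 6 fits without 1 library (highest edgeR adjusted p 0.047).

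The other 4 genes above their neighbours did not pass the comparison of the groups themselves without the block and passed it with the block. TYRO3, a TAM family receptor kinase gene (41557675 to 41583586), stood at 36.3, 24.3 and 34.7 CPM against 53.0, 51.4 and 40.8 CPM (departure 0.85, edgeR adjusted p = 0.033; log2 fold change 0.61, edgeR adjusted p = 0.072; blocked 0.0049). RBPMS2, an RNA-binding protein gene (64739892 to 64775587; upstream sequence above), stood at 12.5, 10.8 and 11.9 CPM against 17.1, 18.3 and 15.5 CPM (departure 0.74, edgeR adjusted p = 0.023; log2 fold change 0.53, edgeR adjusted p = 0.052; blocked 0.0071). Both genes were higher in each overexpressing library than in any wild type library.

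LACTB, a mitochondrial serine protease gene (63121800 to 63142061), stood at 23.6, 21.7 and 24.2 CPM against 29.6, 29.7 and 31.3 CPM (departure 0.56, edgeR adjusted p = 0.029; log2 fold change 0.38, edgeR adjusted p = 0.071, blocked 0.0059). C15orf48, a mitochondrial micropeptide gene and host of a microRNA (45430529 to 45448761), stood at 5.30, 3.60 and 5.37 CPM against 7.42, 9.65 and 7.89 CPM (departure 0.99, edgeR adjusted p = 0.047; log2 fold change 0.81, edgeR adjusted p = 0.063, blocked 0.011). Their groups did not overlap either. Without 1 library, the departures of RBPMS2, LACTB and C15orf48 passed in 0 of 6 fits (highest edgeR adjusted p 0.11, 0.12 and 0.16), and that of TYRO3 passed only without wild type replicate 1 (highest 0.12). Without both libraries of replicate 1, 1 member lay above and 2 below their neighbours.

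**Figure D5:**
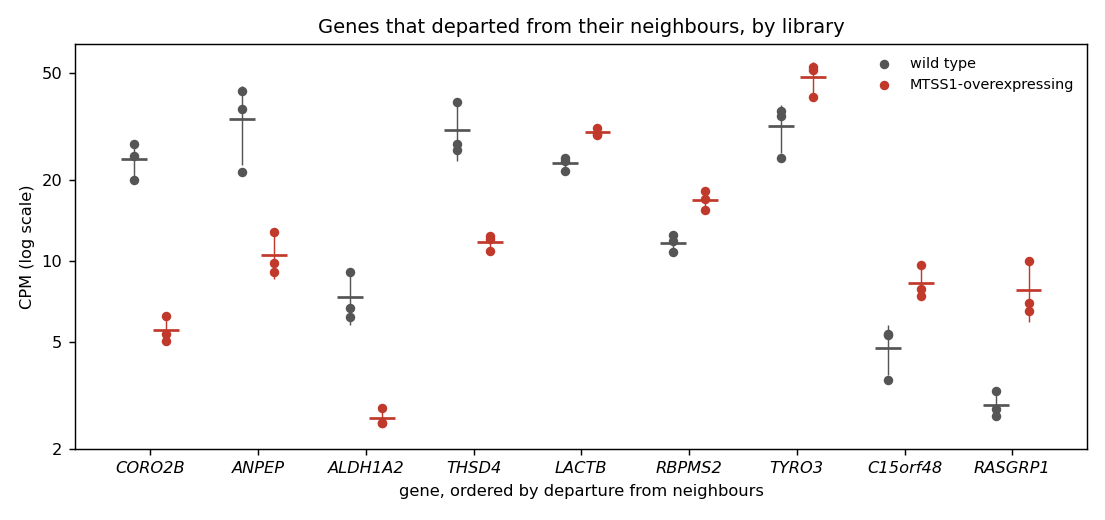
CPM (log axis) of the 9 members that departed from their neighbours, with each library as a point, the group mean as a bar and the SD (n = 3) as a vertical line. CORO2B, ANPEP, ALDH1A2 and THSD4 were lower in all 3 overexpressing libraries, and the other 5 were higher.

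The 10 members lowest in log2 fold change among those called with no overlap included CORO2B, ANPEP, ALDH1A2, THSD4, HERC2P2, MESD, C15orf40, NIPA1 and SCAND2P. MESD, a chaperone gene of LDL receptor family proteins, C15orf40 and the pseudogene SCAND2P lie between 80 and 85 Mb and had log2 fold changes of -0.83, -0.83 and -0.73 (edgeR adjusted p = 0.027, 0.026 and 0.037). They overlap CEMIP, RAMAC and WDR73 in the annotation, and did not depart from their neighbours without the block (edgeR adjusted p = 0.24, 0.30 and 0.30). With the block MESD departed (edgeR adjusted p = 0.016), and C15orf40 and SCAND2P did not (0.087 and 0.11). The calls of MESD, C15orf40 and SCAND2P between the groups held in 1, 1 and 0 of the 6 fits without 1 library. Of the 56 called members, 9 were called in all 6 such fits, among them NIPA1, NIPA2, CYFIP1, ALDH1A2, CORO2B, THSD4, CHD2 and SYNM. SYNM, an intermediate filament gene near the end of the long arm, fell by 0.63 on the log2 scale (edgeR adjusted p = 0.0085). Another 18 were called in none.

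At the level that defines the members, MTMR10 and FAN1 lay just inside with means of 2.07 and 2.18 CPM, and SENP8 and ST20 just outside with 1.88 and 1.86 CPM. Their log2 fold changes were -1.06, -0.89, -0.43 and -0.38. MTMR10 and FAN1 overlap each other and passed only with the block (edgeR adjusted p = 0.12 and 0.18; blocked 0.039 and 0.036).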

How the data were processed

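Polyadenylated RNA was read as 50-cycle single reads from a directional library kit, per the labels' protocols. The authors deposited raw counts per Ensembl gene. The submitters' processing notes name bcl2fastq, HISAT2 2.1.0, HTSeq and GRCh38. For the annotation release and the strand setting the sources used here give nothing, and reads of overlapping or antisense genes may be mixed.

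Rows were placed by Ensembl identifier with GENCODE 29, and 7662 rows without coordinates were left out of the placement. Counts passing filterByExpr (16091 genes) were scaled by TMM and fitted with edgeR 4.0.16 (R 4.3.3; quasi-likelihood test, group as the only term), with Benjamini-Hochberg adjustment over all genes and a threshold of 0.05. A second test entered the median log2 fold change of the 50 nearest tested genes as an offset. Both were tested on simulated data. No 2 libraries of a group agreed within sampling noise (lowest chi-square statistic over its degrees of freedom, 14.7). Alternatives were DESeq2 1.42.0, other scalings, filters, levels and neighbour numbers, a block, and fits without libraries. The block pairs wild type and overexpressing libraries with neighbouring numbers in their titles; no label ties the numbers to a batch or day. Deviations of members from the group means correlated by 0.66, 0.48 and 0.48 within these pairs and by -0.42 to -0.085 between others. Such deviations cancel out within a group, so positive values within the pairs push the others below 0.

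The members and lists were chosen with earlier results of these data known. Genes named were up to 10 in each direction past each test (for the comparison of the groups only with no overlap), up to 3 of each list by adjusted p, the 8 of highest CPM, and 2 on either side of 2 CPM. Other names outside this rule were chosen after their values were seen. Some genes that the rule names are not reported here.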

Additional observations from a re-analysis of the deposited data

How the results depend on the processing

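With RLE size factors, TMM without chromosome 15 genes, a level of 1 or 5 CPM, protein-coding genes alone, or 20 or 100 neighbours, the counts of members called and the median stayed within 1.5 times or 1 SD of those reported. Without the filter on low counts, 85 members were lower, 5 higher, 13 above and 10 below their neighbours. DESeq2 gave 86, 4, 8 and 7. These 2 fits called 1489 and 1185 of 28676 genes, both directions together, against 688 of 16091 in the fit reported. No share over all genes was drawn up for their departures from neighbours. The cause of the shifts in member counts was not tested. The replicate block of neighbouring title numbers gave 206, 7, 33 and 40, and it called 3651 of 16091 genes, both directions together. No share over all genes was drawn up for the 33 and 40. With the block all 26 named members called without it were called, and 23 of the 25 others. Their calls are given beside the genes. Without both libraries of replicate 1, 7 members were lower, 1 above and 2 below their neighbours. In the fits without 1 library, 10 to 25 members were lower, 0 to 2 higher, 1 to 2 above and 1 to 4 below, and the median ran from -0.29 to -0.26. These fits have fewer samples and called 145 to 346 genes over all chromosomes, both directions together. Without overexpressing replicate 2 the log2 fold changes of ANXA2 and TPM1 turned from below to above 0, and over the fits without 1 library they ran from -0.11 to 0.016 for ANXA2 and from -0.22 to 0.19 for TPM1; neither passed the test in either fit, and no other named gene or median changed direction in the alternatives run. Depth limits the 41 members of 2 to 5 CPM, whose median standard error was 0.27 on the log2 scale.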

Other observations

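Below the level of 2 CPM, 125 further genes of chromosome 15 were tested. Their median log2 fold change was -0.16, and 75 lay below 0 (60%, against 49.4% of all genes tested). By edgeR's quasi-likelihood test 4 were lower and 0 higher, against 2.45% and 1.82% of all genes tested. The 4 of 125 are near that share and no result about the chromosome. No background was drawn up for genes of this level alone. The 4, named after their values were seen, were MCTP2 with 8, 36 and 26 counts in wild type and 0, 1 and 1 in overexpressing libraries, ADAMTSL3 with 30, 62 and 57 against 4, 0 and 8, LRRK1 with 37, 43 and 34 against 7, 2 and 5, and SPTBN5 with 23, 37 and 31 against 6, 4 and 8 (edgeR adjusted p = 0.014, 0.035, 0.037 and 0.045). LRRK1 encodes a kinase and SPTBN5 a spectrin. In each of the 4 genes, which were picked for passing the test, all overexpressing libraries lay below all wild type libraries. PATL2 had 7, 31 and 9 counts in wild type and 22, 73 and 35 in overexpressing libraries (edgeR adjusted p = 0.097).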
